A study of Danio rerio with 6 samples.

Results

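Fibroblast growth factor (FGF) signalling genes were examined in sorted zebrafish cells: the ligands, their binding proteins and receptors, the feedback inhibitors and the transcription factors that the pathway turns on. Members were all genes whose symbol matched an FGF ligand (fgf with a number), an FGF receptor (fgfr1 to fgfr4 or fgfrl1), an FGF-binding protein (fgfbp), a Sprouty (spry) or Spred gene, dusp6, etv4, etv5, il17rd or an flrt gene. The rule found 60 of the 32520 genes in the count table, and it used names only. RNA was sequenced from green fluorescent cells of sp7-eGFP transgenic embryos, in which the fluorescent protein is made from the regulatory region of sp7, whose product is a transcription factor of osteoblasts. All 6 libraries carried this transgene and were collected at 4 days post fertilization. The 3 exposed libraries came from embryos kept in 200 nM bisphenol A (BPA), an industrial chemical with estrogenic activity, from 24 hours post fertilization. The 3 control libraries came from embryos of the same line. The labels give stocks in dimethyl sulfoxide but do not say what the control medium held. Each arm held 400 embryos, and no label tells if the libraries of an arm were separate pools; p values therefore measure only the spread between libraries, which may be technical.

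FGF ligands bind receptor tyrosine kinases together with heparan sulfate, and the activated receptor signals through adaptor proteins, Ras and the kinase ERK. ERK signalling switches on ETS factors of the PEA3 group (among them Etv4 and Etv5) and a set of inhibitors that damp the same pathway. These are Sprouty and Spred proteins, the phosphatase Dusp6, and Sef, the product of il17rd. In the skeleton the pathway is known for its part in limb outgrowth, in the growth plate and in the sutures of the skull, where human receptor mutations cause dwarfism and early suture closure.

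Library totals lay between 32173615 and 43403568 counts in the control group and between 30748435 and 42863847 in the exposed group. The unit of level is CPM, a count brought to equal library size by trimmed mean of M values factors, for libraries 1, 2 and 3 of a group in that order. Values after BPA are those of the exposed libraries. The mean and standard deviation (SD) are over n = 3 libraries per group. Fold changes are on the log2 scale, exposed against control, with the standard error (SE) of the difference of mean log2 CPM. The fold change is the estimate of the edgeR fit. The SE comes from the library values, with a prior count of 2, and is not the error that the test used. The adjusted p is that of edgeR's quasi-likelihood test with Benjamini-Hochberg adjustment over all genes tested, and a gene passed at an adjusted p under 0.05.

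The sorted cells held RNA with markers of many tissues, and the summed levels of 13 of 14 marker lists did not overlap between the groups. Of all single genes tested 48.4% had no overlap, but a sum can rest on a few abundant genes, so the measures are unlike. The numbers of markers that rose or fell, given below, stand beside 38.8% of all genes called, 20.1% higher and 18.7% lower. Of 18 osteoblast markers tested 5 rose and 6 fell, and their summed level was 10991 to 11263 CPM in controls against 13256 to 13370 CPM after BPA. This sum rests mostly on a few abundant matrix genes. Those that rose were COL1A1 (ENSDARG00000035809, from 2715 to 4037 CPM), COL1A2 (2350 to 2826), SPARC (1592 to 1962), POSTN (ENSDARG00000104267, 966 to 1337) and PHEX. Those that fell were col1a1a (from 3048 to 2718 CPM), POSTN (ENSDARG00000043806), DLX5, spp1, IFITM5 and PANX3. SP7 itself was at 6.87 ± 1.55 CPM in controls against 8.49 ± 0.355 CPM after BPA (adjusted p = 0.175), and the osteocalcin gene bglap was at 0 in every library. Epidermal markers (14 of 17 rose, 1 fell) summed to 18268 to 18866 CPM in controls against 31808 to 32631 CPM after BPA. Leukocyte markers (9 of 12 rose) summed to 435 to 466 and 713 to 732 CPM, pigment cell markers (7 of 15 rose) to 646 to 656 and 784 to 806 CPM, and skeletal muscle markers (10 of 15 rose, 3 fell) to 49323 to 52293 and 57312 to 58386 CPM. Markers of neural progenitors and glia (12 of 17 fell, 2 rose) summed to 2681 to 2713 CPM in controls against 1092 to 1100 CPM after BPA. Retina and lens markers (12 of 17 fell) summed to 1377 to 1423 and 751 to 764 CPM, liver markers (13 of 13 fell) to 9511 to 9864 and 2868 to 2895 CPM, and intestine markers (8 of 14 fell, 1 rose) to 382 to 405 and 167 to 176 CPM. Endothelial markers (14 of 16 fell) summed to 205 to 225 and 111 to 116 CPM, and chondrocyte markers (12 of 17 fell) to 1578 to 1615 and 1246 to 1287 CPM. Tendon and fibroblast markers (13 of 20 fell, 4 rose) summed to 5592 to 5793 and 5133 to 5180 CPM, and neuron markers (7 of 19 fell, 1 rose, together 42.1%) to 607 to 624 and 530 to 545 CPM. Otic and lateral line markers (2 of 12 fell, 1 rose, with ATOH1 at 0 in every library) summed to 553 to 573 CPM in controls against 542 to 562 CPM after BPA, and here the groups overlapped. In such bulk libraries fewer cells of a type and less RNA per cell cannot be told apart, and the part of these tissues in the differences of FGF genes was not tested.

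Of the 60 FGF genes 51 had enough counts to be tested. Among them 15 fell, 4 rose and 32 did not pass. The share called in either direction, 37.3%, was close to the 38.8% called among all 21194 genes tested. By direction, 29.4% of the tested FGF genes fell against 18.7% of all genes, and 7.84% rose against 20.1% of all genes. The median log2 fold change was -0.23 over the tested members and -0.0029 over all tested genes. Among the 51 tested members 25 had no overlap between the 3 control and the 3 exposed values, and 48.4% of all genes tested had none. Of the 19 called members 18 had no overlap, the exception being FGF10 (ENSDARG00000030932). Among all genes the same held for 7855 of the 8213 called. Asking also for at least a 1.5-fold difference left 9 members lower and 2 higher, beside 8.05% and 11.3% of all genes. Calls were 11 among the 20 tested members with a mean of at least 10 CPM and 1 among the 13 with a mean under 1 CPM. The shares of all genes called in these ranges were not counted, so these numbers have no background to be read against. Symbols are printed as the gene name table gives them, and 18 members share a symbol with another member, so those are given with their Ensembl identifier.

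**Figure D1:**
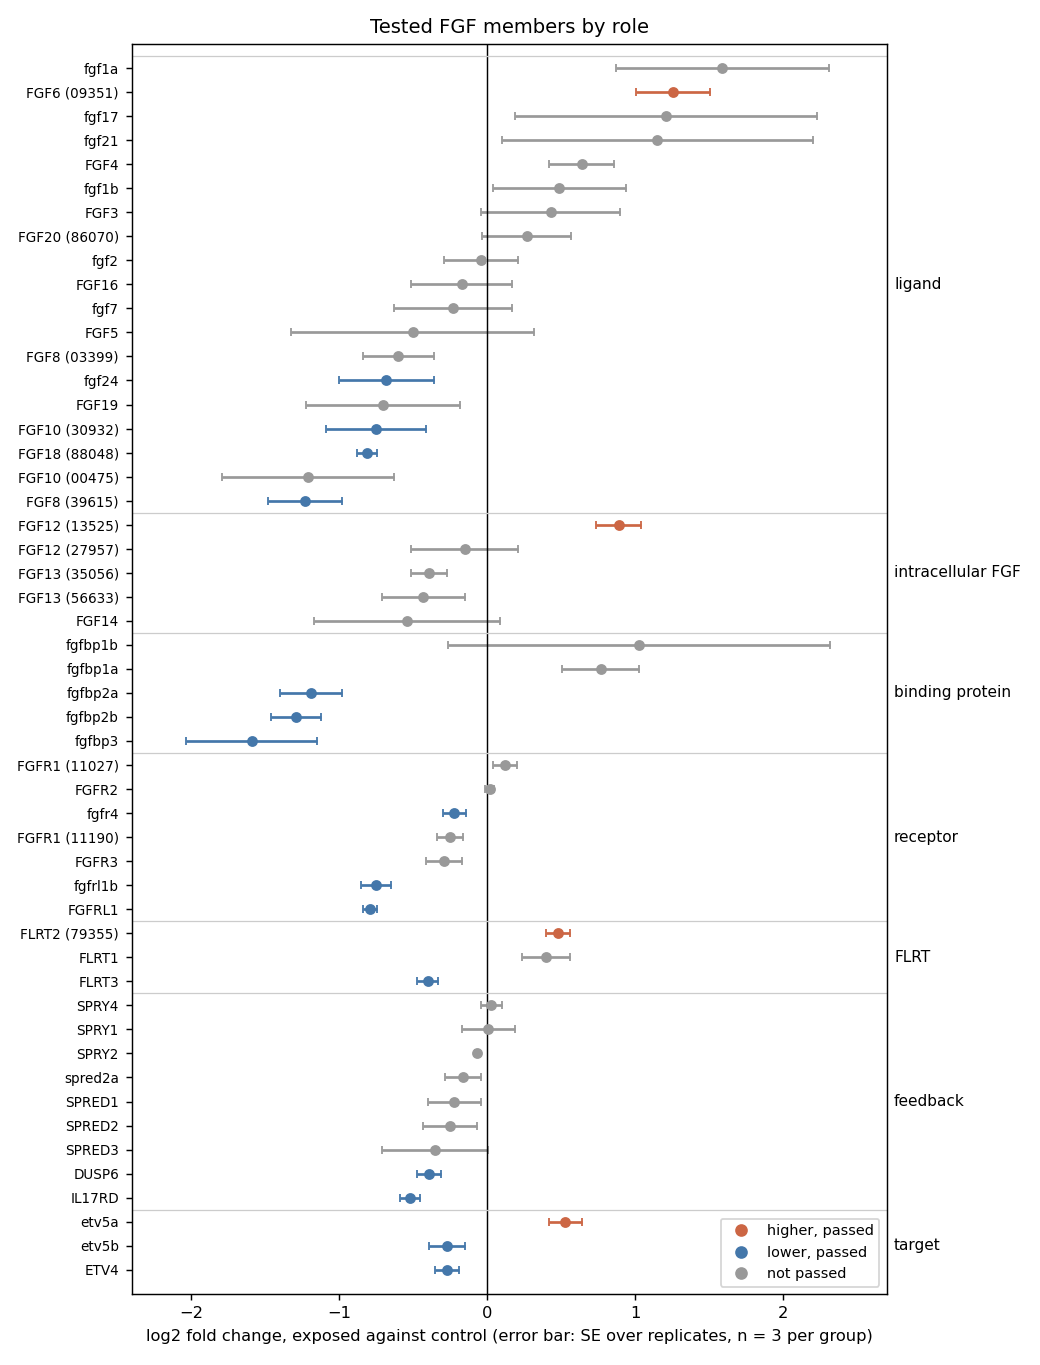
Log2 fold change (x axis, exposed against control) of each of the 51 tested FGF genes, grouped by role, with the SE over 3 libraries per group as error bars; orange points rose, blue points fell and grey points did not pass, and a number in parentheses is the end of the Ensembl identifier. The 15 genes that fell lie in the ligand, binding protein, receptor, FLRT, feedback and target groups, and the receptors without a kinase, FGFRL1 and fgfrl1b, lie close together near -0.79 and -0.75.

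Secreted ligands mostly did not pass, which also held for all genes tested, and the called ones went both ways. Of 25 ligand genes 19 were tested, of which 4 fell, 1 rose and 14 did not pass. The share called was 26.3%, beside 38.8% of all genes tested. By direction, 21.1% fell and 5.26% rose, beside 18.7% and 20.1% of all genes. Members of the FGF8 subfamily, which signal in the developing brain, fins and skeleton, gave 3 of the 4 decreases. FGF18 (ENSDARG00000088048), whose mouse counterpart is needed for bone formation, was at 11.6, 12.7 and 12.2 CPM in controls against 7.53, 6.62 and 6.65 CPM after BPA. All exposed values lay below all control values, a log2 fold change of -0.81 ± 0.07 SE (adjusted p = 3.13e-05). FGF8 (ENSDARG00000039615) was at 3.52, 6.14 and 5.33 CPM in controls against 2.08, 2.38 and 1.92 CPM after BPA. Its control libraries were spread more widely than its exposed ones but did not overlap them, and it fell by 1.23 on the log2 scale (SE 0.25, adjusted p = 0.000221). The neural progenitor and retina markers given above, tissues where FGF8 genes are known to act, were lower in the same libraries. So were markers of other tissues, such as liver and endothelium, while epidermal and muscle markers were higher and the otic and lateral line sums overlapped. A link between these markers and FGF8 was not tested. The other FGF8 gene (ENSDARG00000003399) had means of 1.44 ± 0.23 and 0.939 ± 0.253 CPM and did not pass (log2 fold change -0.60 ± 0.24 SE, adjusted p = 0.284), with no overlap between the groups.

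The ligand gene fgf24, which in zebrafish is needed for pectoral fin outgrowth, was at 14.1, 6.73 and 8.62 CPM in controls against 6.11, 5.66 and 6.55 CPM after BPA. Control library 1 stood well above the others, and the lowest control value was just above the highest exposed value. The gene fell by 0.68 on the log2 scale (SE 0.32, adjusted p = 0.00644), and its call was lost without control library 1 (log2 fold change -0.32, adjusted p = 0.173). The remaining subfamily members were near the limit of detection: fgf17 had 0, 1 and 14 control counts and 14, 12 and 12 exposed counts (adjusted p = 0.409). Without control library 3, which left controls at 0 and 1 counts, fgf17 passed (adjusted p = 0.0283). The other FGF18 gene (ENSDARG00000043962) had at most 18 counts in a library and was not tested.

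FGF10 (ENSDARG00000030932), a ligand that drives limb and organ bud outgrowth in mouse, was at 3.92, 3.59 and 2.67 CPM in controls against 2.92, 1.76 and 1.45 CPM after BPA. Exposed library 1 lay within the control range. It fell by 0.75 on the log2 scale (SE 0.34, adjusted p = 0.0441). This call was lost without control library 1 (adjusted p = 0.121), control library 2 (0.1), exposed library 2 (0.165) or exposed library 3 (0.223), and with DESeq2 (0.068). The other FGF10 gene (ENSDARG00000100475) had 32, 20 and 22 counts in controls against 12, 16 and 4 after BPA and did not pass (adjusted p = 0.212). FGF3, from the same ligand group, was at 1.77, 5.18 and 3.16 CPM in controls against 4.81, 5.33 and 3.6 CPM after BPA (log2 fold change 0.43 ± 0.47 SE, adjusted p = 0.233). Control library 2 lay as high as the exposed libraries, and without it the log2 fold change of FGF3 was 0.90 with an adjusted p of 0.0155.

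FGF6 (ENSDARG00000009351) was the ligand that rose; its mouse counterpart is expressed in developing muscle. It was at 2.44, 1.39 and 1.58 CPM in controls against 4.45, 4.54 and 3.93 CPM after BPA, with all exposed values above all control values. The log2 fold change was 1.26 ± 0.25 SE (adjusted p = 0.000377). Skeletal muscle markers, whose sums are given above, were also higher in the exposed libraries, and a link to FGF6 was not tested. FGF4, of the same subfamily, was at 2.52, 1.82 and 3.04 CPM in controls against 3.6, 3.66 and 4.16 CPM after BPA. Its values did not overlap either, and its adjusted p of 0.05002 lay just above the threshold (log2 fold change 0.64 ± 0.22 SE); it passed under 6 other settings, among them counts halved (adjusted p = 0.0392). The other FGF6 gene (ENSDARG00000045856) had at most 18 counts in a library and was not tested.

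Among the remaining ligands none passed. The ubiquitous ligand fgf2 was at 1.37 ± 0.322 CPM in controls against 1.33 ± 0.277 CPM after BPA (adjusted p = 0.95). The endocrine ligands, which act at a distance through Klotho co-receptors, were low in all libraries. The liver hormone gene fgf21 had 44, 4 and 4 control counts and 48, 38 and 28 exposed counts. Control library 1 thus lay with the exposed libraries, and the log2 fold change of fgf21 was 1.15 ± 1.05 SE (adjusted p = 0.225) but 3.24 without that library (adjusted p = 0.00187). Liver markers, whose sums are given above, were lower in the exposed libraries, and a link to fgf21 was not tested. The gene of the phosphate-regulating hormone, fgf23, had 2, 2 and 0 control counts and 4, 12 and 4 exposed counts, too few to test. The low genes fgf21, fgf23, fgf17, fgf2 and fgf9 are named here after their values were seen. The gene fgf9 had 0 counts in every library, which at 3 counts allows up to 0.0974 CPM in the shallowest library. This limit covers counting error only.

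The intracellular FGFs (FGF11 to FGF14), which are not secreted and modulate voltage-gated sodium channels, were mostly not called. Of 7 genes 5 were tested, and 1 rose. The share called was 20%, all higher, beside 38.8% of all genes tested in either direction and 20.1% higher. Most of all genes were thus not called either. FGF12 (ENSDARG00000113525) was at 2.18, 1.59 and 1.95 CPM in controls against 3.31, 3.95 and 3.3 CPM after BPA, all above the controls. Its log2 fold change was 0.89 ± 0.15 SE (adjusted p = 0.00952); without exposed library 2 the adjusted p was 0.0643. The other FGF12 gene (ENSDARG00000027957) was at 1.88, 2.27 and 3.47 CPM in controls against 1.62, 2.14 and 3.04 CPM after BPA, with overlap (adjusted p = 0.749). Of the FGF13 genes, ENSDARG00000035056 was at 8.81, 7.68 and 9.55 CPM in controls against 6.46, 7.33 and 6.04 CPM after BPA, with no overlap (log2 fold change -0.39 ± 0.12 SE, adjusted p = 0.0586). Its counterpart ENSDARG00000056633 was at 7.57, 5.41 and 4.03 CPM in controls against 4.22, 3.76 and 4.7 CPM after BPA, with overlap (adjusted p = 0.132). The former passed once control library 2 was left out (adjusted p = 0.0339), and the latter once control library 3 was (adjusted p = 0.0226). The difference between the FGF12 and FGF13 genes was not tested.

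Of the FGF-binding protein genes, fgfbp3 and fgfbp2b had the lowest log2 fold changes of the called members. The family is named after a secreted carrier that releases FGFs from the extracellular matrix. Of 5 genes, all tested, 3 fell and 2 did not pass. The share called was 60%, all lower, beside 38.8% of all genes tested in either direction and 18.7% lower. The gene fgfbp2b was at 15.4, 15.2 and 17.1 CPM in controls against 5.13, 6.76 and 7.39 CPM after BPA, and every exposed value was below every control value. It fell by 1.29 on the log2 scale (SE 0.17, adjusted p = 1.52e-08). Its paralog fgfbp2a was at 5.96, 7.18 and 5.7 CPM in controls against 3.51, 2.47 and 2.34 CPM after BPA, again without overlap (log2 fold change -1.19 ± 0.21 SE, adjusted p = 6.37e-05). The third, fgfbp3, had 54, 58 and 52 counts in controls against 14, 32 and 10 counts after BPA (log2 fold change -1.59 ± 0.44 SE, adjusted p = 0.016). Its call was lost without exposed library 3 (log2 fold change -1.24, adjusted p = 0.0853). The genes fgfbp1a and fgfbp1b, each the direct neighbour of an fgfbp2 gene in the RefSeq order of another zebrafish assembly (GRCz12tu), had fold changes of the opposite sign and did not pass. They had 8, 12 and 6 counts against 8, 18 and 20 (fgfbp1a, adjusted p = 0.507) and 0, 18 and 30 counts against 26, 51 and 28 (fgfbp1b, adjusted p = 0.307). They are named here after their values were seen, and the difference between neighbours was not tested.

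**Figure D2:**
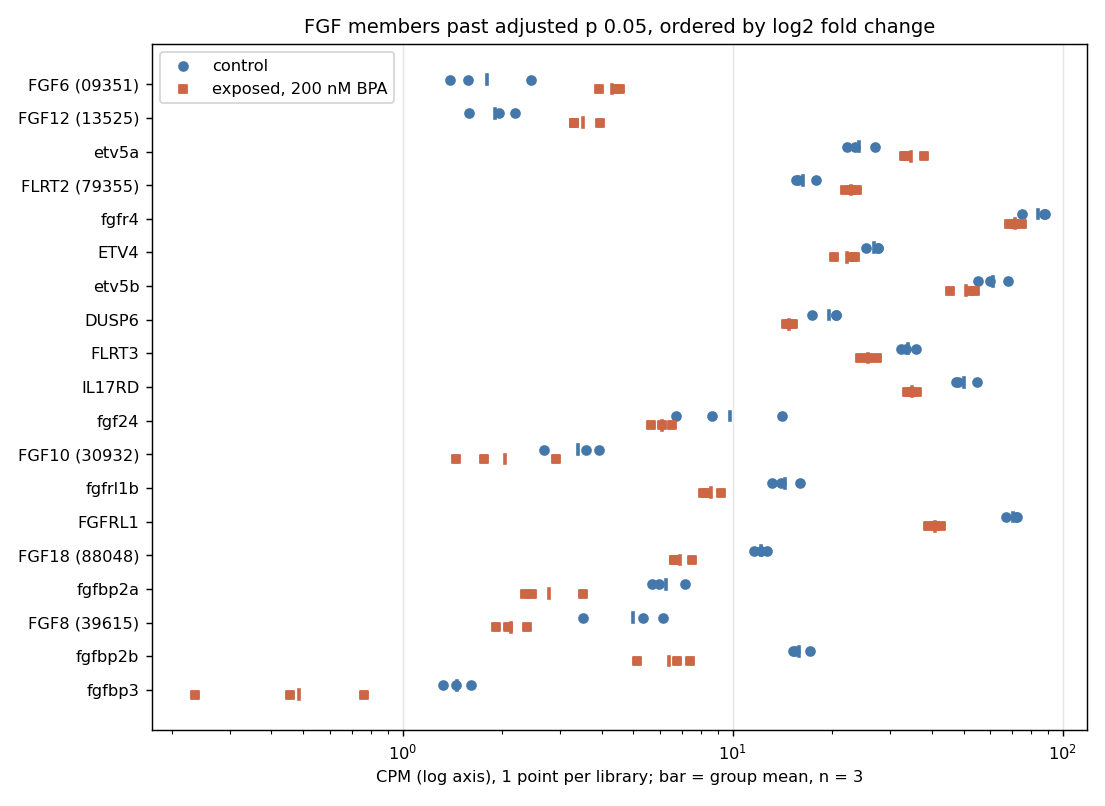
CPM (x axis, log scale) of the 19 FGF genes past an adjusted p of 0.05 in each library, with control libraries as blue circles, exposed libraries as orange squares and group means (n = 3) as bars; genes are ordered by log2 fold change, highest at the top. The groups do not overlap except for FGF10 (ENSDARG00000030932), and the control and exposed values of fgfr4, fgf24 and etv5b come close to each other.

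The receptor with the clearest change was FGFRL1, which binds FGFs but has no kinase domain. It was at 72.3, 67.3 and 72.7 CPM in controls against 40.9, 42.7 and 39 CPM after BPA. Replicates were close and the groups far apart: the mean changed by -42.2%, a log2 fold change of -0.79 ± 0.05 SE (adjusted p = 1.21e-11), the smallest adjusted p among the 51 tested members. Its paralog fgfrl1b was at 16, 13.1 and 14 CPM in controls against 9.22, 8.33 and 8.14 CPM after BPA. These values did not overlap either, and the log2 fold change of -0.75 ± 0.10 SE (adjusted p = 3.67e-05) was of similar size.

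Among the 5 genes of kinase-bearing receptors 20% were called, all lower, beside 38.8% of all genes tested in either direction and 18.7% lower. Only fgfr4 passed. It was at 75.4, 88.2 and 87.7 CPM in controls against 75.3, 68.7 and 71.3 CPM after BPA. Control library 1 and exposed library 1 were nearly equal, and the log2 fold change was -0.22 ± 0.08 SE (adjusted p = 0.00366). FGFR2, a receptor of skull sutures and epithelia, was at 170, 179 and 179 CPM in controls against 181, 182 and 173 CPM after BPA. Its groups overlapped, with a log2 fold change of 0.02 ± 0.03 SE (adjusted p = 0.735). FGFR3, the receptor that restrains growth plate cartilage in mammals, was at 15.6, 14.3 and 17.6 CPM in controls against 12.7, 11.9 and 14.4 CPM after BPA. The overlap was slight, and it did not pass (log2 fold change -0.29 ± 0.12 SE, adjusted p = 0.0634) except without control library 2 (0.0345).

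The FGFR1 genes had fold changes of opposite sign. FGFR1 (ENSDARG00000011190) was at 19.3, 20.4 and 22.8 CPM in controls against 16.7, 19 and 16.7 CPM after BPA. The groups did not overlap, but the log2 fold change of -0.25 ± 0.09 SE did not pass (adjusted p = 0.0549); it passed without control library 1 (0.0283) or exposed library 2 (0.0482). FGFR1 (ENSDARG00000011027) was at 49, 51.4 and 48.9 CPM in controls against 59.4, 49.1 and 54 CPM after BPA. Its exposed values were spread around and above the control values (log2 fold change 0.12 ± 0.08 SE, adjusted p = 0.174). Whether the authors' counting could split reads between such paralogs is not stated in the sources used here.

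The FLRT proteins are membrane adhesion molecules, of which FLRT3 promotes FGF signalling in Xenopus embryos. Of 4 genes 3 were tested. The share called was 66.7%, beside 38.8% of all genes tested, and the called ones moved in opposite directions. FLRT3 was at 33.5, 36 and 32.4 CPM in controls against 24.2, 25.7 and 27.3 CPM after BPA, all below the controls (log2 fold change -0.40 ± 0.07 SE, adjusted p = 0.000256). FLRT2 (ENSDARG00000079355) was at 15.5, 15.7 and 17.9 CPM in controls against 22.9, 21.8 and 23.8 CPM after BPA, all above the controls (log2 fold change 0.48 ± 0.08 SE, adjusted p = 0.00031). FLRT1 was at 2.63, 3.32 and 2.67 CPM in controls against 4.42, 3.57 and 3.42 CPM after BPA, without overlap, and did not pass (log2 fold change 0.40 ± 0.16 SE, adjusted p = 0.21).

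Of the 9 feedback inhibitor genes, all tested, 2 fell, 0 rose and 7 did not pass. The share called was 22.2%, all lower, beside 38.8% of all genes tested in either direction and 18.7% lower. An unadjusted p under 0.05 in the edgeR test was found for 3 of the 9, beside 9708 of all 21194 genes tested. IL17RD, whose product Sef was described in zebrafish as an FGF antagonist, was at 47.5, 48 and 55.1 CPM in controls against 36.1, 34.6 and 33.8 CPM after BPA. Every exposed value lay below every control value, a log2 fold change of -0.52 ± 0.07 SE (adjusted p = 7e-07). DUSP6, the phosphatase that inactivates ERK, was at 20.6, 17.4 and 20.6 CPM in controls against 14.5, 14.8 and 15.2 CPM after BPA. The groups did not overlap, and it fell by 0.39 on the log2 scale (SE 0.08, adjusted p = 0.00438).

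No Sprouty or Spred gene passed. SPRY2, an inhibitor acting between receptor and ERK, was at 76.7, 75.4 and 75.6 CPM in controls against 73.3, 72.5 and 71.8 CPM after BPA. Replicates of each group were close, with a coefficient of variation of 0.911% in the control and 1.02% in the exposed group. The groups thus did not overlap although the log2 fold change was -0.07 ± 0.01 SE and did not pass (adjusted p = 0.355). SPRY4 was at 47.7, 55.7 and 49.9 CPM in controls against 52.1, 52.6 and 51.7 CPM after BPA (log2 fold change 0.03 ± 0.07 SE, adjusted p = 0.777), and the exposed values lay inside the control range. SPRY1, at 10.1, 7.66 and 11.7 CPM in controls against 10.2, 9.92 and 9.59 CPM after BPA, showed the same pattern (log2 fold change 0.01 ± 0.18 SE, adjusted p = 0.963).

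The Spred genes, whose products bring the Ras inhibitor neurofibromin to the membrane, all had fold changes below 0 and overlapping groups. SPRED1 was at 14.6, 10.3 and 15.1 CPM in controls against 11.2, 10.7 and 12.2 CPM after BPA (log2 fold change -0.22 ± 0.18 SE, adjusted p = 0.232). Control library 2 lay below the exposed libraries, and without it SPRED1 passed (adjusted p = 0.0269). SPRED2 was at 16.7, 21.9 and 21.2 CPM in controls against 19.9, 15.9 and 14.6 CPM after BPA (log2 fold change -0.25 ± 0.18 SE, adjusted p = 0.103). It passed without control library 1 (0.014) or exposed library 1 (0.0248). The gene spred2a was at 20.7, 17.1 and 21.8 CPM against 19.4, 17 and 17.1 CPM after BPA (log2 fold change -0.16 ± 0.12 SE, adjusted p = 0.277). SPRED3 was at 3.98, 2.77 and 5.7 CPM against 2.53, 3.05 and 4.12 CPM after BPA (log2 fold change -0.35 ± 0.36 SE, adjusted p = 0.324).

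**Figure D3:**
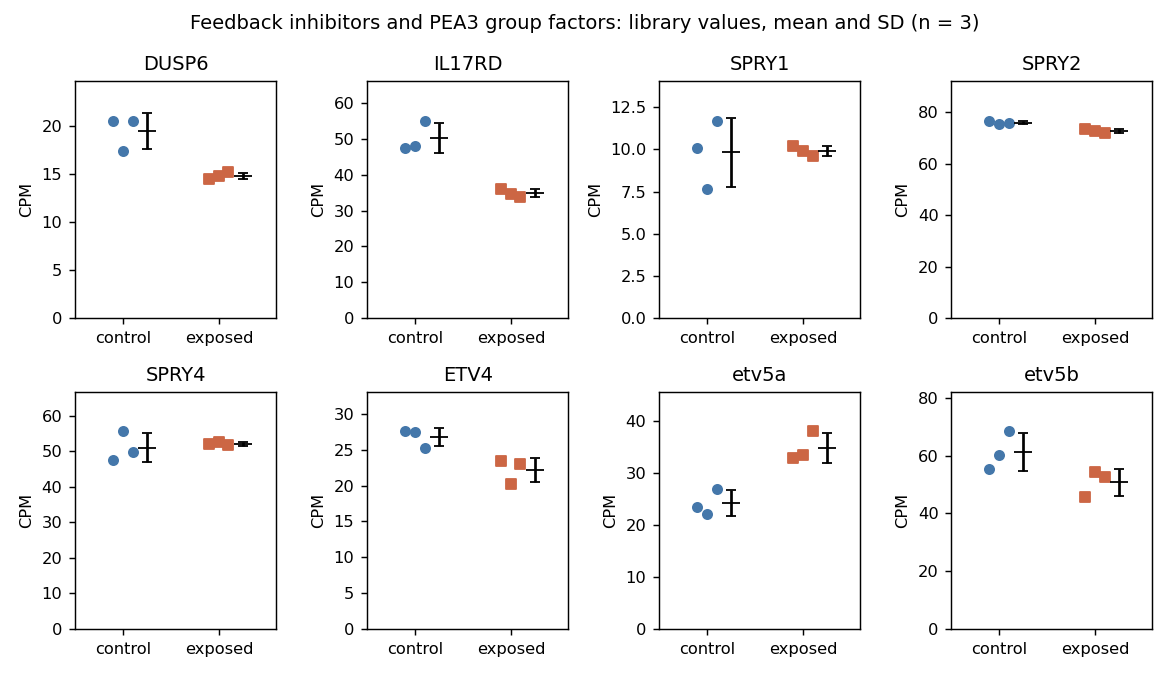
CPM (y axes from 0) of 5 feedback inhibitor genes and the PEA3 group genes ETV4, etv5a and etv5b in each library. Control libraries are blue circles, exposed libraries are orange squares, and the mean and SD (n = 3) are in black. DUSP6, IL17RD, ETV4 and etv5b fell and etv5a rose, while SPRY1, SPRY2 and SPRY4 did not pass.

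The PEA3 group factors ETV4, etv5a and etv5b, which FGF signalling through ERK is known to switch on, all passed but not in the same direction. Among all genes tested 38.8% were called. The gene etv5a rose: it was at 23.4, 22.1 and 26.9 CPM in controls against 32.9, 33.4 and 38 CPM after BPA, a log2 fold change of 0.53 ± 0.11 SE (adjusted p = 1.6e-05). All exposed values lay above all control values. Its paralog etv5b was at 55.4, 60.3 and 68.4 CPM in controls against 45.5, 54.2 and 52.4 CPM after BPA. The highest exposed value was just under the lowest control value, and the log2 fold change was -0.27 ± 0.12 SE (adjusted p = 0.0036, or 0.0504 without exposed library 1). ETV4 was at 27.6, 27.5 and 25.3 CPM in controls against 23.4, 20.3 and 23 CPM after BPA, also without overlap. It fell by 0.27 on the log2 scale (SE 0.08, adjusted p = 0.0186), a call that was lost without control library 2 (0.0503) or exposed library 2 (0.134). As a share of the summed counts of ETV4, etv5a and etv5b, etv5a made up 22%, 20.1% and 22.3% in controls against 32.3%, 30.9% and 33.6% after BPA. Such shares are not per gene length and are read across libraries only. ETV1, also of the PEA3 group, did not match the rule for members and was in a partner list. Named here after its values were seen, it fell from 4.64 to 2.97 CPM without overlap (log2 fold change -0.65 ± 0.16 SE, adjusted p = 0.0249).

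**Figure D4:**
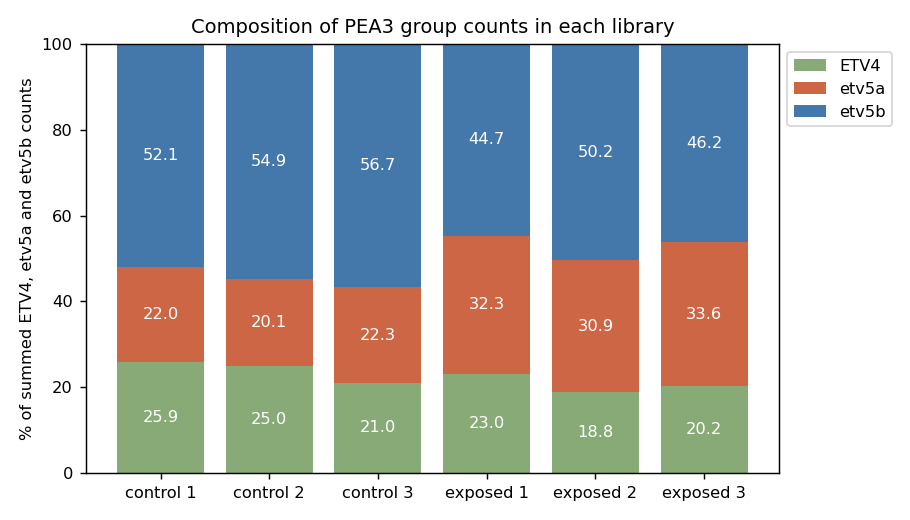
Share (y axis, in %) of the summed counts of ETV4, etv5a and etv5b that each gene took in each library (x axis). The etv5a share is 20.1% to 22.3% in the control and 30.9% to 33.6% in the exposed libraries, while the etv5b share is 52.1% to 56.7% and 44.7% to 50.2%.

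FGFRL1, the member with the smallest p, was used as a reference for likeness. Over the 6 libraries the members whose log2 CPM followed it most closely were fgfrl1b (Pearson's r = 0.974), FGF18 (ENSDARG00000088048, 0.969), IL17RD (0.969), fgfbp2b (0.960) and SPRY2 (0.960). These values describe 6 points in 2 groups that differ in most of these genes, so a shared group difference alone gives a high r.

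Pathway genes outside the family were read from 3 lists of partners, chosen with earlier results of these data known. Of the receptor adaptor and kinase cascade genes 44 were tested: 14 rose, 4 fell and 26 stayed short of the threshold, with a median log2 fold change of 0.05. The percentages were 31.8% higher and 9.09% lower, against 20.1% and 18.7% of all genes. MAP2K1, the kinase that activates ERK, rose from 36.2 ± 1.71 to 74.5 ± 2.64 CPM (log2 fold change 1.04 ± 0.05 SE, adjusted p = 2.44e-14), with 38, 36.2 and 34.6 CPM in controls against 77.5, 72.6 and 73.4 CPM after BPA. The Ras gene kras rose from 9.81 to 16.6 CPM (log2 fold change 0.76 ± 0.10 SE). PLCG2, a phospholipase of immune cells, rose from 2.79 to 7.68 CPM (log2 fold change 1.46 ± 0.11 SE). Leukocyte markers were also higher in the exposed libraries, and a link to PLCG2 was not tested. The kinase gene akt3b fell from 7.41 to 4.59 CPM (log2 fold change -0.69 ± 0.23 SE).

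The second list held co-receptors and genes of heparan sulfate, the sugar chain that FGFs need for receptor binding. Of 43 tested 19 fell, 4 rose and 20 did not pass, with a median log2 fold change of -0.29. The percentages were 44.2% lower and 9.3% higher, against 18.7% and 20.1% of all genes. The sulfatase gene sulf2a, which trims sulfate from the chain outside the cell, fell from 15.8 to 7.83 CPM (log2 fold change -1.01 ± 0.11 SE, adjusted p = 3.82e-07). EXT1 (ENSDARG00000103155) and EXTL2, which encode glycosyltransferases of chain synthesis, went down, the former from 15.8 to 10 CPM (adjusted p = 9.67e-05) and the latter from 10.6 to 5.85 CPM (5.42e-05). HS2ST1 (ENSDARG00000062008), a sulfotransferase gene, fell from 14.9 to 9.45 CPM. The other genes named EXT1 or HS2ST1 and ext1c, named here after their values were seen, did not pass. The log2 fold change was 0.04 for the other EXT1 gene (ENSDARG00000101019, adjusted p = 0.912) and -0.19 for ext1c (adjusted p = 0.323). It was -0.16 for the other HS2ST1 gene (ENSDARG00000099478, adjusted p = 0.385). Further relatives, also named after their values were seen, did fall. EXT2 went from 61.2 to 40.3 CPM (log2 fold change -0.60, adjusted p = 4.27e-08). The log2 fold change was -0.49 for SULF2 (adjusted p = 0.00111) and -0.27 for SULF1 (adjusted p = 0.000741). EXTL3 did not pass (log2 fold change 0.25, adjusted p = 0.184). The 4 that rose, named here after their values were seen, were HSPG2, sdc4, l1camb and NDST1 (ENSDARG00000062397). HSPG2, which encodes perlecan, a heparan sulfate proteoglycan of cartilage and basement membranes, rose from 25.3 to 37.9 CPM (log2 fold change 0.58 ± 0.08 SE, adjusted p = 1.03e-06). Chondrocyte markers, whose sums are given above, were lower in the exposed libraries, and a link to HSPG2 was not tested.

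Other ERK phosphatases and targets went both ways: 15 of 54 tested genes rose, 12 fell and the other 27 stayed short of the threshold. The percentages were 27.8% higher and 22.2% lower, against 20.1% and 18.7% of all genes, with a median log2 fold change of 0.02. The immediate early genes FOSB and ier2b rose, FOSB from 3.95 to 9.78 CPM and ier2b from 112 to 208 CPM. The phosphatase gene DUSP2 rose from 49.1 to 101 CPM (log2 fold change 1.05 ± 0.03 SE, adjusted p = 7.04e-16). DLX2 (ENSDARG00000079964), a homeobox gene of the forebrain and branchial arches, fell from 24.4 to 13.4 CPM. The other DLX2 gene (ENSDARG00000017174), named here after its values were seen, fell from 1.46 to 0.513 CPM, with overlap (log2 fold change -1.55 ± 0.67 SE, adjusted p = 0.0274). DUSP2 thus rose in the libraries in which its relative DUSP6 fell, and the difference between them was not tested. The other DUSP genes of the list, named here after their values were seen, also went both ways. DUSP1 (log2 fold change 0.30) and DUSP7 (0.23) rose, DUSP5 (-0.58) and DUSP8 (-0.30) fell, and DUSP4 (0.51, adjusted p = 0.151) did not pass.

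**Figure D5:**
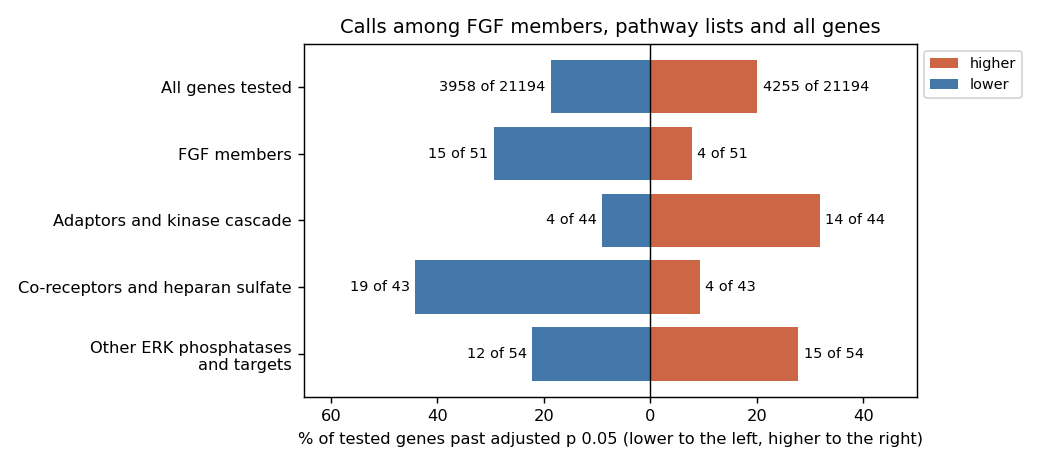
Share (x axis, in % of the genes tested) that fell (blue, to the left) and rose (orange, to the right) at an adjusted p under 0.05, for all genes, the FGF genes and the 3 partner lists; the counts stand beside the bars. FGF genes and co-receptor and heparan sulfate genes have the longer bar on the left (15 against 4 and 19 against 4), and adaptors and cascade genes on the right (14 against 4).

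The 9 members that were not tested had at most 24 counts in any library. They were FGF11, fgf11b, the FGF18, FGF20 and FGF6 genes with the lower counts, FGF22, fgf23, fgf9 and the FLRT2 gene ENSDARG00000097299. Apart from fgf9, each had counts in both groups, too few to be tested.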

How the data were processed

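The authors deposited raw counts, not normalized, of 32520 Ensembl genes in 6 libraries. The submitters' processing notes name the build GRCz11, the aligner STAR 2.7.10a, the counter featureCounts 2.0.6, FastQC and R 4.4.2; the options, strand setting and annotation release are not given in the sources used here. Between 76.1% and 81.7% of the nonzero counts in a library were even, as when both mates of a pair are counted, so intervals and floors that rest on counts may be too narrow. Symbols came from a table that covered 29201 of the genes.

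The test was run on these counts in edgeR 4.0.16 (with statmod 1.5.0 and limma 3.58.1, under R 4.3.3): filterByExpr by group (minimum count 10, minimum total 15), trimmed mean of M values, and a robust quasi-likelihood F-test of exposed against control, two-sided, adjusted over all 21194 genes tested. The procedure was tested on simulated counts with known changes in a small part of the genes, none of them low, and with the same dispersion for every gene. It therefore does not show how the test performs for low genes, for genes that vary more, or where many genes differ. Alternatives were other scalings and filters, DESeq2 1.42.0, halved counts, the replicate number as a block, and leaving out each library.

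The FGF genes, 3 partner lists and 14 marker lists were chosen with earlier results of these data known. Of the partner names 89 matched by symbol, 52 through a symbol without its paralog letter, 1 by synonym, and 5 had no match; of the marker names these numbers were 149, 48, 3 and 15. Library values were named in full for called members and for all receptor, feedback, ETV4 and etv5 genes, with the 6 others of highest mean CPM. From each partner list came the 4 called genes with the largest log2 fold change and a mean of at least 5 CPM. No sequence is shown, and no coordinates are given.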

Additional observations from a re-analysis of the deposited data

How the results depend on the processing

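Of the 19 called FGF genes 13 kept their call under each of the 15 alternatives that gave them a value, and none changed sign. ETV4, etv5b, FGF10 (ENSDARG00000030932), FGF12 (ENSDARG00000113525), fgf24 and fgfbp3 lost their call without at least 1 library, with the values given above. How many of all called genes kept their call, and how many of all tested genes changed sign, was not counted. Without each library in turn, 3 to 6 members rose and 13 to 16 fell, beside 3484 to 4240 and 3215 to 3823 of all genes. Asking also for at least a 1.5-fold difference left 2 members higher and 9 lower, 10 partners higher and 15 lower, and 2396 of all genes higher and 1706 lower, by construction of the stricter rule. The log2 fold change changed sign with 1 library left out in 7 of the 51 tested members, none of which passed with or without a library: it ran from -0.42 to 0.13 for FGF12 (ENSDARG00000027957), from -0.38 to 0.27 for FGF16, from -0.20 to 0.16 for fgf2, from -0.44 to 0.17 for fgf7, from -0.0028 to 0.04 for FGFR2, from -0.14 to 0.15 for SPRY1 and from -0.02 to 0.10 for SPRY4; the cause was not tested. With DESeq2 4 members rose and 14 fell, beside 4150 and 3732 of all genes. The labels give the groups the same replicate numbers, but same-numbered libraries did not deviate together (correlations of -0.0131, -0.00375 and 0.0119 over genes), so the numbers were not taken as pairs; with the replicate number as a block 6 members rose and 15 fell, FGF4 (adjusted p = 0.0472) and fgf21 (0.0484) being added, and 4282 of all genes rose and 3882 fell. Scaling moved the median log2 fold change of all genes by less than 0.01. Of the 13 tested members with a mean under 1 CPM 1 was called, fgfbp3. The share of all genes called in that range was not counted, and the part of depth in this was not tested.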
